A study of Mus musculus with 40 samples.

Results

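The comparison covers 8 of the 40 libraries of the series: the 4 of QKO EpiLCs and the 4 of LBRKO EpiLCs, taken by their labels. EpiLCs are epiblast-like cells, made here from XY mouse embryonic stem (mES) cells kept 48 h in N2B27 medium with FGF at 20 ng/mL and Activin A at 12 ng/mL. LBRKO cells carry frameshift edits made with CRISPR in *Lbr*, the gene of the lamin B receptor, in a WT line. QKO cells carry edits of *Lbr* in a line that already lacked *Lmna*, *Lmnb1* and *Lmnb2* (TKO). Both groups thus share the loss of LBR, and the question asked here is what the loss of lamins adds to it. Each library was one culture well, so the errors below are the spread between wells. QKO cells were a single surviving clone, several LBRKO clones were made and the labels do not say which one a library came from, and the TKO and WT lines were littermates rather than the same line. Clone, line and lamin loss therefore cannot be told apart in the comparison.

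Lamins form a meshwork under the inner nuclear membrane. LBR sits in that membrane, holds heterochromatin at the nuclear edge and also carries a sterol reductase domain that acts in cholesterol synthesis. Heterochromatin with methylated H3K9 is enriched at the nuclear edge and holds silent developmental genes and transposable elements (TEs), repeats that include LINE-1 elements and endogenous retroviruses.

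Libraries differed in depth along the groups compared. QKO libraries held 25.3 to 33.02 M gene counts (M, the SI mega) and LBRKO libraries 40.8 to 48.1 M. WT EpiLC libraries split the same way, with 25.4 to 33.5 M in replicates 1 to 4 and 44.4 to 48.9 M in replicates 5 to 8. Each QKO minus LBRKO value of a gene or TE family was therefore recomputed with the difference between these WT sets subtracted and added. A call that passed both ways is named below as clear of the WT difference. LBRKO replicate 3 stood apart from the other LBRKO libraries. TE families took 12.7% of its counts, against 8.01%, 7.84% and 9.68% in LBRKO replicates 1, 2 and 4, and the ancient L2 and MIR repeats, which are mostly read from introns and intergenic sequence, took 0.485% against 0.238% to 0.323%. QKO libraries lay at 13.5% to 14.3% for TE families and at 0.4404% to 0.467% for L2 and MIR. Results that rest on this library are given with and without it. Pluripotency markers were present in both groups. The 5 core pluripotency genes measured summed to 2059 to 2363 CPM (counts per M counts of the TMM-adjusted library size) in LBRKO and 1808 to 2028 in QKO libraries, and none was called.

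The RNA of *Lmnb1* and *Lmnb2* matched the labels. *Lmnb1*, which encodes lamin B1, stood at 569, 520.2, 502 and 554 CPM in the LBRKO libraries and at 2.09, 1.85, 1.64 and 1.74 in the QKO libraries (log2 fold change -8.20 ± 0.10, adjusted p = 5.7e-42 by edgeR's quasi-likelihood test with Benjamini-Hochberg adjustment). *Lmnb2*, the gene of lamin B2, stood at 107, 105, 91.4 and 87.2 CPM against 1.58, 1.79, 1.01 and 1.51 (log2 fold change -6.04 ± 0.14, adjusted p = 4.9e-31). *Lmna*, the gene of lamins A and C, was reduced far less at the RNA level, with 19.2, 18.4, 13.5 and 18.4 CPM against 6.95, 8.41, 9.43 and 8.74 (log2 fold change -1.05 ± 0.12, adjusted p = 6.0e-10). In WT EpiLCs *Lmna* stood at 11.3 ± 1.16 CPM (SD, n = 8), between the LBRKO and QKO levels, and its call was not clear of the WT difference. *Lbr* RNA did not pass the test, at 403, 392, 196 and 233 CPM against 252, 282, 291 and 282 (log2 fold change -0.15 ± 0.15, adjusted p = 0.47). The LBRKO libraries were split for *Lbr*, with replicates 1 and 2 near the WT mean of 429 CPM and replicates 3 and 4 below every QKO library. The edits of *Lbr* are small deletions, of which the QKO clone carries a frameshift and an in-frame allele, and an RNA level says nothing here of the protein.

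**Figure D1:**
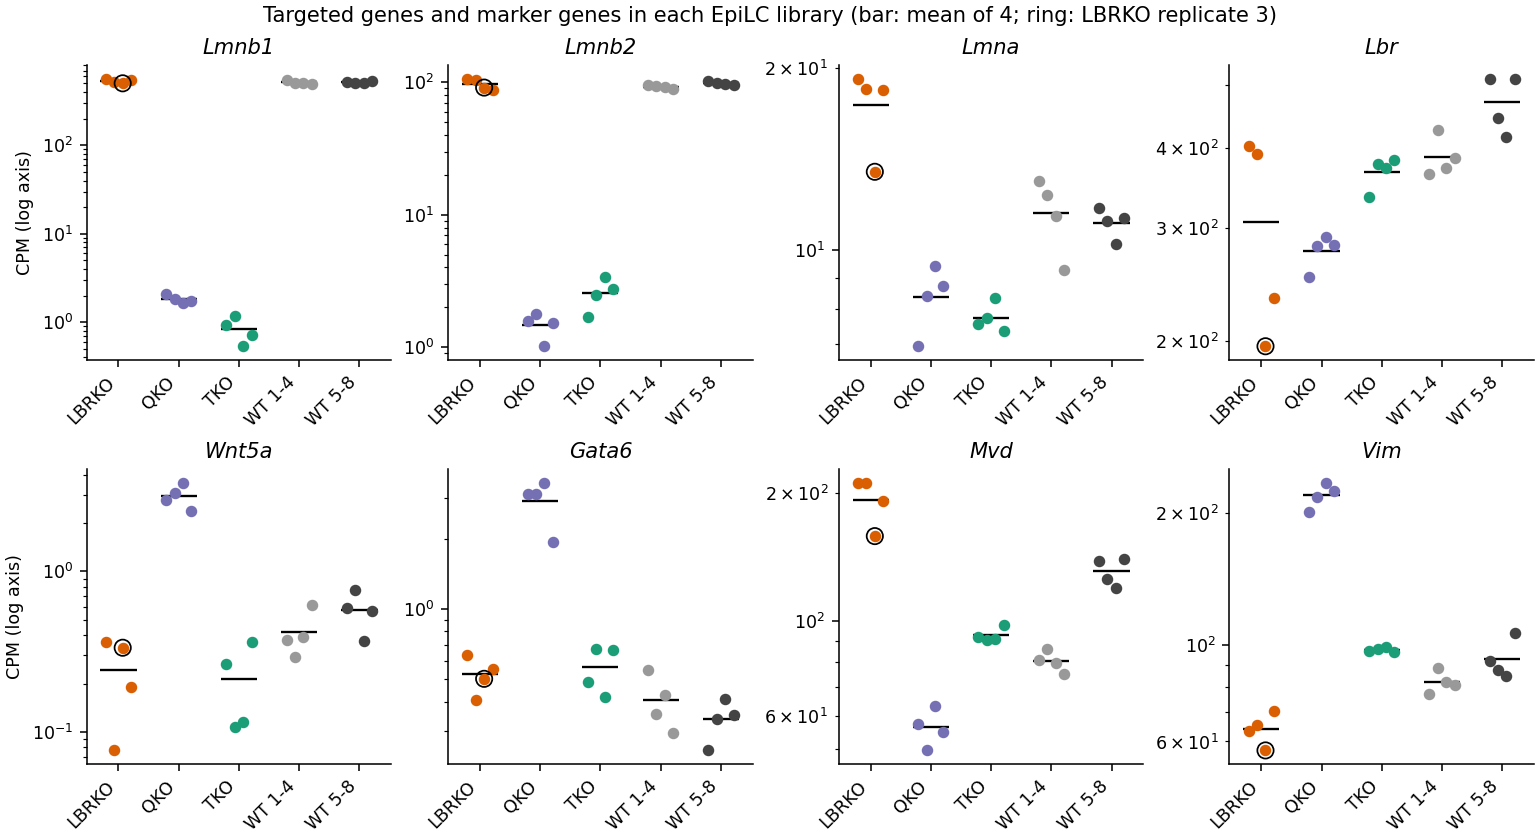
CPM on a log axis (y) of the 4 targeted genes and of *Wnt5a*, *Gata6*, *Mvd* and *Vim* in each EpiLC library, by group (x). Points are libraries, bars are means of 4 and the ring marks LBRKO replicate 3; the QKO libraries lie apart from all LBRKO libraries in every panel but that of *Lbr*.

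Of 23399 genes tested, 2194 (9.38%) were called higher in QKO and 1402 (5.99%) lower, at an adjusted p under 0.05 and a fold change over 2. Of these, 762 higher and 711 lower genes (3.26% and 3.04% of genes tested) were clear of the WT difference. The same test between the WT sets called 166 genes higher (0.709%) and 71 lower (0.303%), and 65 of those were also called between QKO and LBRKO. Leaving out LBRKO replicate 3, 2667 of the same genes were higher (11.4%) and 1404 lower (6.0%). The called genes were mostly of low abundance: the median called higher gene rose from 0.417 to 1.29 CPM. Protein-coding genes were called lower somewhat more often than higher, 1165 against 926 of 15477. Long noncoding RNAs went the other way, with 768 of 3253 higher (23.6%) and 92 lower. The share of all gene counts on long noncoding RNAs was 1.39% to 1.47% in QKO and 0.694% to 0.921% in LBRKO libraries other than replicate 3, which held 1.05%, and so moved together with the L2 and MIR share. The part of this background in the noncoding calls was not tested.

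Among genes outside chromosomes 6 and Y that reached 5 CPM, were clear of the WT difference and did not overlap between the groups, the highest fold was that of *Apoa2*, an apolipoprotein of high-density lipoprotein (chromosome 1, 171052623-171053948 in GRCm39). It stood at 0.0909, 0.0255, 0.0209 and 0.0639 CPM in LBRKO and 8.31, 8.79, 8.74 and 9.36 in QKO (log2 fold change 7.35 ± 0.47, adjusted p = 2.0e-16). TKO EpiLCs already held 5.63 ± 0.926 CPM (SD, n = 4). *Klhl13*, an adaptor of a ubiquitin ligase encoded on the X chromosome, was the most abundant of these genes, at 24.0, 27.3, 25.5 and 30.7 CPM against 279.7, 309.6, 287 and 304 (log2 fold change 3.46 ± 0.11, adjusted p = 5.2e-27). WT EpiLCs averaged 67.4 CPM of *Klhl13*, above LBRKO, and TKO EpiLCs 134. *Nrcam*, a cell adhesion molecule of the nervous system, stood at 3.63, 3.12, 4.81 and 4.83 CPM against 61.2, 57.8, 59.5 and 64.4 (log2 fold change 3.88 ± 0.20, adjusted p = 4.6e-19). Its level in LBRKO lay below that of WT, 18.0 ± 1.32 CPM (SD, n = 8), and its level in QKO above it. *Efhc2* averaged 2.88 ± 0.706 CPM in LBRKO and 54.2 ± 1.66 in QKO (log2 fold change 4.23 ± 0.22, adjusted p = 3.4e-19), with 7.61 in WT and 22.8 in TKO. *Ebf3*, a transcription factor of neural and mesodermal lineages, reached 6.60 ± 0.849 CPM in QKO against 0.489 ± 0.292 in LBRKO (log2 fold change 3.73 ± 0.38, adjusted p = 2.0e-10). Germ-cell genes were among the highest as well. *Cyct*, the testis form of cytochrome c, stood at 1.73, 2.38, 2.07 and 2.68 CPM against 29.4, 21.4, 17.9 and 18.3, and *Smc1b*, the meiotic cohesin subunit, at 1.02, 1.46, 2.01 and 1.62 against 17.3, 13.6, 13.4 and 15.5 (log2 fold changes 3.29 and 3.29). *Cyp2b23* (3.92), *Rcsd1* (3.53), the noncoding *Slfnlnc* (3.07) and the pseudogenes *Pcna-ps2* (3.30) and *Btnl7-ps* (3.22) complete the 12 genes chosen by this rule. Pseudogenes resemble their parent genes in sequence, and their values are uncertain.

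The lowest folds by the same rule included, beside *Lmnb1* and *Lmnb2*, genes that were also low in TKO EpiLCs. *Igsf23* stood at 21.2, 21.4, 17.9 and 16.9 CPM in LBRKO and 0.864, 1.41, 2.06 and 0.925 in QKO (log2 fold change -3.88 ± 0.16, adjusted p = 4.6e-22), with a TKO mean of 1.12 CPM. *Crocc2*, a relative of the ciliary rootlet protein, fell from 45.1 ± 2.14 to 3.25 ± 0.499 CPM (-3.79 on the log2 scale), with 1.94 CPM in TKO. *Ankrd35* (-3.68) and the pseudogenes *Tdg-ps2* (-7.15), *Ndufa12-ps* (-3.39) and *Gpr137b-ps* (-3.17) were low in TKO and QKO alike. In a second set the gap between QKO and LBRKO exceeded that between TKO and WT (tested with the comparison of these gaps below). *Alg13*, a subunit of the enzyme that extends the glycan precursor for N-glycosylation, stood at 167, 189.8, 179.6 and 168 CPM against 25.0, 25.4, 23.4 and 26.2 (log2 fold change -2.82 ± 0.09, adjusted p = 9.6e-27), with 152 ± 15.9 CPM in TKO (SD, n = 4). *Egln3*, an oxygen-dependent prolyl hydroxylase, held 47.0 ± 3.11 CPM in LBRKO and 6.15 ± 0.444 in QKO (log2 fold change -2.94 ± 0.10, adjusted p = 4.6e-26), with 26.8 CPM in TKO. In another set the LBRKO level stood above that of WT. *Rhox6*, a homeobox gene of the X-linked reproductive cluster, stood at 11.6, 9.55, 6.77 and 11.3 CPM in LBRKO, 1.45 on average in WT and 0.972, 1.66, 0.917 and 0.869 in QKO (log2 fold change -3.15 ± 0.28, adjusted p = 2.3e-12). The keratin gene *Krt42* went from 13.9 CPM in LBRKO to 1.55 in QKO, with 2.67 in WT (-3.18).

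Counts of called genes in the lists below are to be read against the shares over all genes, 9.38% higher and 5.99% lower. Genes of WNT ligands moved both ways. *Wnt5a*, a ligand of the noncanonical WNT branch that shapes gastrulation movements, stood at 0.363, 0.0766, 0.334 and 0.192 CPM in LBRKO and 2.77, 3.07, 3.57 and 2.38 in QKO (log2 fold change 3.57 ± 0.41, adjusted p = 1.5e-09). *Wnt8a*, a ligand of the early primitive streak, stood at 0.204, 0.511, 0.502 and 0.596 CPM against 2.45, 2.97, 3.54 and 4.20 (log2 fold change 2.85 ± 0.42, adjusted p = 3.8e-07). The lowest QKO library exceeded the highest LBRKO library more than 4-fold for each of these ligands. Of 16 WNT ligands tested, 5 were higher, *Wnt10a* (1.90), *Wnt8b* (1.75) and *Wnt6* (1.28) being the others, and 3 lower, *Wnt7a* (-1.97), *Wnt5b* (-1.53) and *Wnt16* (-1.11). All 3 lower ligands lie on chromosome 6. The median over the list was 0.32 on the log2 scale, against -0.02 over all genes, and 3 higher and 1 lower ligand were clear of the WT difference, whereas *Wnt10a*, *Wnt8b*, *Wnt7a* and *Wnt16* were not. Among 22 WNT receptors, inhibitors and targets, 1 rose, *Ror1* (1.26), which encodes a receptor of WNT5A, and 3 fell, the inhibitor *Nkd1* (-1.67), the receptor *Fzd9* (-1.49) and the secreted antagonist *Sfrp1* (-1.43, not clear of the WT difference).

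Primitive endoderm genes moved both ways. *Gata6*, the transcription factor that starts the lineage, stood at 0.636, 0.409, 0.502 and 0.554 CPM in LBRKO and 3.10, 3.10, 3.47 and 1.93 in QKO (log2 fold change 2.45 ± 0.33, adjusted p = 6.7e-08). *Pdgfra*, the receptor that marks these cells, stood at 0.613, 0.587, 0.481 and 0.277 CPM against 1.98, 2.30, 3.08 and 1.93 (log2 fold change 2.24 ± 0.32, adjusted p = 2.5e-07). *Hnf4a* (1.47) and the laminin gene *Lama1* (1.16) were also called. In the other direction the basement membrane collagens *Col4a1* and *Col4a2* were lower in QKO (-1.31 and -1.33), as were *Sox7* (-1.56) and *Amn* (-1.69). The LBRKO level of both collagens stood above that of WT. *Col4a1* averaged 79 CPM in LBRKO, 31.7 in QKO and 46.4 in WT, and *Col4a2* 29.1, 11.6 and 12.2. The count was 4 higher and 4 lower of 19 tested, with a median of 0.02, and *Hnf4a*, *Lama1* and *Sox7* were not clear of the WT difference. *Sox17*, *Foxa2* and *Gata4*, which act downstream of *Gata6* in endoderm, had log2 values of 0.09, 0.20 and -0.45 and did not pass. Among 15 mesendoderm and gastrulation genes, *Eomes*, a T-box factor of the streak, stood at 6.02, 7.53, 6.63 and 6.47 CPM in LBRKO and at 20.4, 22.6, 20.8 and 21.8 in QKO (log2 fold change 1.69 ± 0.11, adjusted p = 1.0e-15), *Lhx1* rose (2.31, from 0.137 to 0.688 CPM) and *Bmp4* fell (-1.46), while *T* stayed under 0.2 CPM in both group means (0.0912 and 0.102). The call of *Lhx1* was lost with the WT difference added, at 0.42 (adjusted p = 0.75).

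Of 17 formative and primed epiblast genes, 3 rose and none fell. *Otx2*, which drives exit from the naive state, stood at 68.7, 68.8, 46.0 and 63.2 CPM in LBRKO and 162, 163, 168 and 172 in QKO (log2 fold change 1.43 ± 0.32, adjusted p = 0.00037), *Fgf5* at 83.0, 90.2, 80.0 and 89.6 against 177, 181, 185 and 177 (log2 fold change 1.07 ± 0.09, adjusted p = 1.6e-12), and the Nodal antagonist *Lefty1* at 35.8, 36.7, 74.5 and 48.3 against 77.8, 105, 127 and 113 (log2 fold change 1.11 ± 0.31, adjusted p = 0.0034). With the WT difference subtracted, *Lefty1* lost its call, at 0.59 (adjusted p = 0.066). For these 3 genes the LBRKO mean was below the WT means of replicates 1 to 4 and of replicates 5 to 8. Naive pluripotency genes had a median of -0.54 over 14 tested, with 1 called lower, *Nr5a2* (-2.34), and 1 higher, *Dppa3* (2.78), which lies on chromosome 6. Against WT, the median of this list was 0.78 for LBRKO and 0.20 for QKO. *Nr5a2* averaged 9.8 CPM in LBRKO, 1.94 in QKO and 3.28 in WT. *Nr0b1*, *Nanog* and *Esrrb* had log2 values of -0.98, -0.93 and -0.82, short of the 2-fold limit. Among markers of other cell types, trophectoderm genes had 1 higher and 3 lower of 14, neural genes 1 and 2 of 13, and extracellular matrix and fibroblast genes 0 and 1 of 10. Of 8 endothelial and blood markers tested, *Tal1* (2.02) and *Tek* (1.33, not clear of the WT difference) rose, and the 12 in the table summed to 40.3 to 51.4 CPM in LBRKO and 48.96 to 53.3 in QKO libraries. In bulk RNA, a change in the number of cells of one kind and a change in RNA per cell cannot be told apart.

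Cholesterol synthesis had the largest share of lower genes among the pathway lists, 10 of 20 tested, with none higher by edgeR's quasi-likelihood test or by DESeq2. Its median was -1.01, against -0.02 over all genes, and 16 of the 20 members had no overlap between the groups, all lower in QKO, against 21.6% of all genes not overlapping in that direction. *Mvd*, the decarboxylase of the mevalonate pathway, stood at 212, 212, 159 and 192 CPM in LBRKO and 57.5, 49.7, 63.2 and 54.9 in QKO (log2 fold change -1.78 ± 0.13, adjusted p = 2.7e-14). *Tm7sf2*, which encodes the sterol reductase that shares its reaction with LBR, stood at 39.9, 36.0, 28.1 and 39.1 CPM against 6.55, 7.87, 9.40 and 8.69 (log2 fold change -2.14 ± 0.15, adjusted p = 3.3e-15). *Pmvk*, phosphomevalonate kinase, stood at 80.1, 69.9, 60.5 and 87.5 CPM against 25.0, 15.4, 17.1 and 17.8 (log2 fold change -1.99 ± 0.16, adjusted p = 7.1e-14). LBRKO replicate 3 was the lowest LBRKO library for all 3 genes and still lay above every QKO library. *Mvk* (-1.54), *Msmo1* (-1.39), *Lss* (-1.33), *Acat2* (-1.31), *Hmgcs1* (-1.27), *Dhcr7* (-1.03) and *Sqle* (-1.03) were also called.

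Against WT, the list's median was 0.51 in LBRKO and -0.52 in QKO, and *Mvd* averaged 106 ± 28.0 CPM in WT (SD, n = 8), so that WT lay between the groups. The WT sets also differed in the same direction for these genes. The list's median between WT replicates 1 to 4 and 5 to 8 was -0.48, with no member called, and *Mvd* stood at 80.5 ± 4.50 CPM in the first and 131 ± 10.03 in the second set (SD, n = 4 each). With the WT difference subtracted, the list's median was -0.59 and 3 of the 10 calls remained, *Tm7sf2*, *Pmvk* and *Mvd*, which were also clear when it was added. TKO minus WT gave a median of -0.16 with no call in the list. *Srebf2*, the transcription factor that drives the pathway, is no member of the list and was chosen after its values were seen. It had a value of -0.89 and was not called. In fatty acid synthesis, 5 of 16 genes fell, *Acaca*, *Me1*, *Fads1*, *Fads2* and *Acly* (-1.23 to -1.01), *Thrsp* rose (1.44) and the median was -0.83, but none of the 6 was clear of the WT difference.

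**Figure D2:**
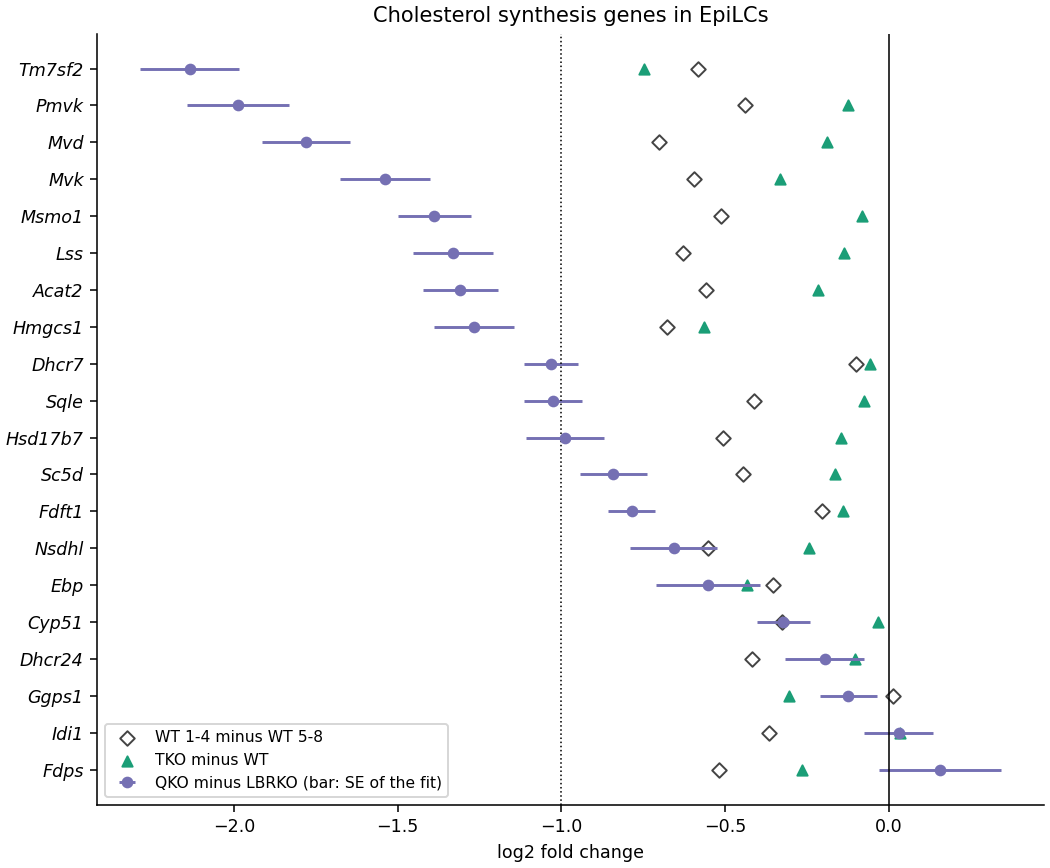
Log2 fold change (x) of each cholesterol synthesis gene (y) for QKO minus LBRKO with the standard error of the fit, for WT replicates 1 to 4 minus 5 to 8 and for TKO minus WT; the dotted line is a 2-fold fall. *Tm7sf2*, *Pmvk* and *Mvd* lie farthest below the WT difference, and 18 of the 20 genes lie below 0 for QKO minus LBRKO.

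Promoter windows are shown for the called sterol genes because they moved together. RefSeq start-site windows (GRCm38.p6, 250 bases before to 50 after the start) were found for 16 members of the list, and CCAAT, the box bound by NF-Y, a partner of SREBP at sterol genes, occurred on either strand in 15 of them (93.8%), against 41.1% of 27025 genes with a window. Among members called lower in QKO it occurred in 8 of 9 (88.9%). Members that were not called held it as well, so the box did not set the called genes apart. The sterol regulatory element core TCACNCCAC, searched on both strands as well, occurred in 1 of 16 and in 1.44% of all genes, and did not overlap a CCAAT there. One match per gene is shown. Capitals mark the match (ATTGG is CCAAT read on the other strand), sequences run 5′ to 3′ on the strand of the gene, and all stretches end before the start site.
Mvd, chr8:122443435-122443459, minus strand, 22 bases before the start: ggccagcgggCCAATcatatggcag
Tm7sf2, chr19:6067883-6067907, minus strand, 42 bases before the start: cccagcgctgATTGGctactgtgct
Pmvk, chr3:89454395-89454419, plus strand, 131 bases before the start: ctcaggttggCCAATtcacagcatc
Msmo1, chr8:64733619-64733643, minus strand, 50 bases before the start: gtggggcggaCCAATtacgacaggc
Hmgcs1, chr13:119690204-119690232, plus strand, 128 bases before the start: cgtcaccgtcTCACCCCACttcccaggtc
A match is a run of letters only, and binding was not measured.

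Genes of actin, adhesion and YAP signalling fell in part. *Acta2*, smooth muscle actin, held 81 to 165 reads per LBRKO library and 0 to 3 per QKO library, a ratio of 49.02 (95% exact interval 22.4 to 134.3, counting error only). *Myl9*, a myosin light chain of the contractile apparatus, stood at 24.8, 19.2, 19.3 and 26.6 CPM against 4.90, 3.45, 5.08 and 4.20 (log2 fold change -2.35 ± 0.23, adjusted p = 2.5e-11). *Cnn1*, calponin, fell from 7.43 ± 1.63 to 2.30 ± 0.420 CPM (-1.69) and *Flna*, which crosslinks actin, from 1545 ± 109.7 to 749 ± 34.1 CPM (-1.04). *Vim*, the intermediate filament protein vimentin, was higher in QKO, at 202, 218, 235 and 225 CPM against 63.5, 65.3, 57.2 and 70.6 (log2 fold change 1.78 ± 0.11, adjusted p = 9.5e-17). The list counted 1 higher and 4 lower of 18, with a median of -0.4, and *Vim*, *Acta2*, *Myl9* and *Cnn1* were clear of the WT difference. The CArG box, bound by serum response factor at contractile genes, occurred in 1.81% of all windows and in 3 of the 16 members with a window. That of *Myl9* is shown because the gene was called:
Myl9, chr2:156775293-156775322, plus strand, 151 bases before the start: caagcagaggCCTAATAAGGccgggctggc

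Nuclear envelope genes other than the targeted ones were mostly level. Of 22 tested, *Syne3*, a nesprin that links the envelope to the cytoskeleton, stood at 0.591, 0.638, 0.355 and 0.277 CPM against 1.48, 1.66, 1.64 and 1.85 (log2 fold change 1.84 ± 0.33, adjusted p = 1.5e-05), and *Lpcat3*, a phospholipid acyltransferase on chromosome 6, fell (-1.18). The genes of the SUN proteins, emerin and LAP2 had values of -0.38 (*Sun1*), -0.07 (*Sun2*), -0.21 (*Emd*) and 0.09 (*Tmpo*).

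Targets of p53 had 4 of 22 members higher and none lower, against 9.38% and 5.99% of all genes, with a median of 0.43. All 13 members without overlap between the groups were higher in QKO, against 17.0% of all genes not overlapping in that direction. *Perp*, an apoptosis effector, stood at 7.13, 7.79, 7.29 and 7.96 CPM against 26.9, 28.9, 27.8 and 26.3 (log2 fold change 1.86 ± 0.12, adjusted p = 2.2e-16), and *Trp73*, a relative of p53, at 18.5, 18.6, 20.7 and 15.7 against 51.5, 55.4, 71.6 and 65.4 (log2 fold change 1.73 ± 0.11, adjusted p = 1.3e-16). *Trp53inp1* (1.15) and *Ccng1* (1.01) were called, while *Mdm2* (0.94), *Cdkn1a* (0.60) and *Bax* (-0.22) were not. *Ccng1* was not clear of the WT difference. Without LBRKO replicate 3, 6 were called.

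Germline and piRNA genes had 5 of 17 higher and none lower, against 9.38% and 5.99% of all genes, with a median of 0.66. *Taf7l*, a germ-cell form of a general transcription factor subunit, stood at 3.88, 3.78, 4.76 and 6.94 CPM against 19.9, 21.2, 20.7 and 21.2 (log2 fold change 2.10 ± 0.20, adjusted p = 1.6e-11) and *Sycp1*, of the meiotic synaptonemal complex, at 6.09, 5.44, 8.40 and 7.20 against 29.98, 21.2, 19.5 and 23.1 (log2 fold change 1.79 ± 0.17, adjusted p = 1.5e-11). *Tex101* (1.602), *Tdrd9* (1.34) and *Piwil2* (1.02) were also called, though *Tdrd9* and *Piwil2* were not clear of the WT difference, while *Dazl* had a value of 0.95 and *Ddx4* of 0.53. Genes of the two-cell-like state had 5 of 12 higher, *Zfp352*, *Usp17la*, *Zscan4f*, *Zscan4c* and *Usp17lc*, at means of at most 0.539 CPM in QKO and 0.204 in LBRKO. *Zscan4c* stood at 0.227, 0.102, 0.0627 and 0.426 CPM in LBRKO and 0.576, 0.640, 0.491 and 0.448 in QKO, and at 2.77 ± 0.363 in WT (SD, n = 8). The QKO levels of these genes were thus below those of WT, with a list median of -2.32 for QKO minus WT and of -3.73 for LBRKO minus WT. Members of the Zscan4 and Usp17l families resemble each other in sequence, and their values are uncertain. Of the 5, 2 were clear of the WT difference, and 3 remained called without LBRKO replicate 3.

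Among imprinted genes, 4 of 33 rose and 2 fell, near the shares of 9.38% and 5.99% over all genes. *Peg3* stood at 134, 153, 173 and 137 CPM against 466, 427, 420.4 and 446 (log2 fold change 1.56 ± 0.07, adjusted p = 6.1e-21), its neighbour *Usp29* rose with it (1.69), and *Slc38a4* (2.18) and *Igf2* (1.65) were higher. *Slc38a4* averaged 19.9 CPM in LBRKO, 90 in QKO, 51.7 in WT and 158 in TKO. *Sfmbt2* (-1.002) and *Slc22a18* (-1.75) were lower. *Igf2*, *Sfmbt2* and *Slc22a18* were not clear of the WT difference. *Sfmbt2* lay at the 2-fold limit and lost its call in 13 of 19 alternatives, and at 77.5 ± 2.08 CPM in QKO it stood between LBRKO (155 ± 8.44) and WT (35.8 ± 3.44).

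Genes of H3K9 methylation, its enzymes, readers and partners, did not move past 2-fold. None of 18 was called in either direction by edgeR's quasi-likelihood test or by DESeq2, with 0 members past 2-fold at an unadjusted p under 0.05, and values ran from -0.65 (*Wiz*) to 0.47 (*Cbx5*, which encodes HP1 alpha). Of these 18 genes, 14 lay below 0, and the median was -0.15. Between the groups, 8 did not overlap and were lower in QKO and 1 was higher, against 21.6% and 17.0% of all genes. *Setdb1*, the member nearest 0, stood at 159, 171, 150.5 and 147 CPM in LBRKO and 144, 162, 159.8 and 162 in QKO. Of 19 genes of retrotransposon silencing, *Piwil2* alone was called. Antiviral genes had 1 higher, *Ifit1* (2.38, not clear of the WT difference), and 2 lower, *Oasl2* (-2.20) and *Sting1* (-1.64), of 25, and 1 of 21 replication-dependent histone genes was lower.

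**Figure D3:**
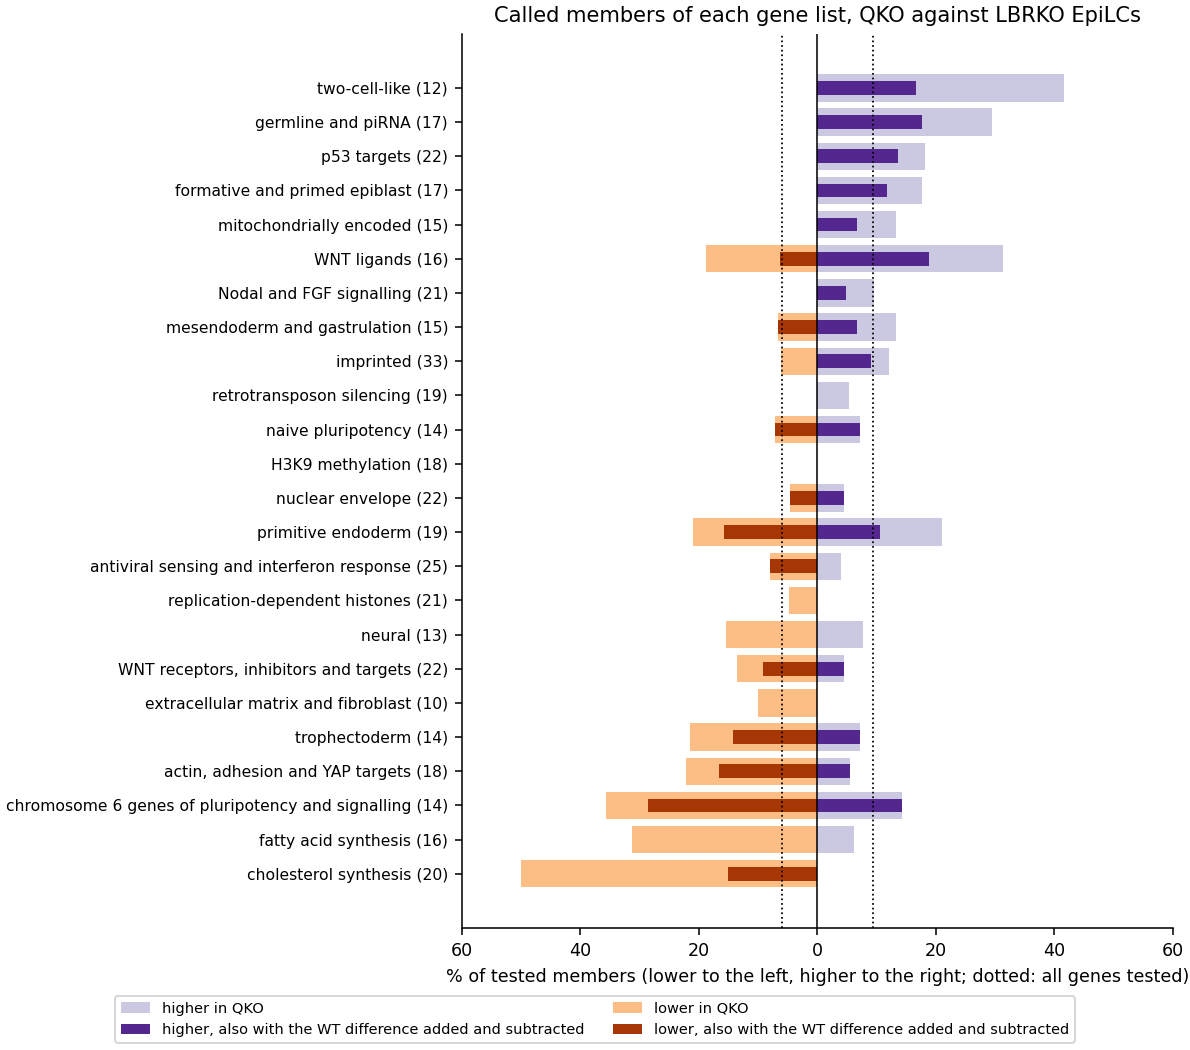
Share of the tested members of each gene list (y, number tested in parentheses) called lower (left) or higher (right) in QKO than in LBRKO EpiLCs, in percent (x). Narrow dark bars are the calls clear of the WT difference and dotted lines the shares over all genes, 5.99% lower and 9.38% higher; cholesterol synthesis has the longest bar to the left.

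TE families took 13.9% ± 0.299 of counts in QKO and 9.56% ± 2.26 in LBRKO EpiLCs (SD, n = 4 each), a difference of 4.34 percentage points (exact two-sided permutation test over 70 splits, p = 0.0286, the smallest these splits can give, 0.0343 after adjustment over 6 shares). Between the WT sets the difference was 0.177 points (exact p = 0.8). Without LBRKO replicate 3 it was 5.39 points, where the exact test cannot go below 0.0571. LINE, SINE, LTR and satellite shares were higher in every QKO library than in every LBRKO library, and that of DNA transposons was not (exact p = 0.257).

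Of 1142 families tested, 86 (7.53%) were called higher in QKO and 1 (0.0876%) lower. The higher families were 65 of 603 LTR families, 10 of 189 LINE, 3 of 273 DNA, 3 of 7 satellite, none of 34 SINE and 5 of 36 families of other classes, and 42 (3.68%) were clear of the WT difference. The test between the WT sets called 1 family higher and none lower. The whole distribution was shifted: the median family had a log2 value of 0.54, and of 0.82 without LBRKO replicate 3, when 250 families (21.9%) were called higher. The values below are therefore to be read against 0.54 and the counts of families called higher against 7.53%. The number of calls depended on that library.

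Young LINE-1 elements lay above this shift. L1MdA_I, a family with promoters that are still active, stood at 498, 528, 709 and 740.5 CPM in LBRKO and 3517, 2698, 2669 and 2900 in QKO (log2 fold change 2.25 ± 0.18, adjusted p = 1.0e-12). LBRKO replicate 3 was within the range of the other LBRKO libraries for this family, and the value without it was 2.32. L1MdA_II (2.05), L1MdGf_I (1.74), L1MdTf_I (1.08) and L1MdA_III (1.04) were also called, 5 of 8 families in all, and L1MdTf_III was not, with -0.08. TKO EpiLCs held 1303 ± 116 CPM of L1MdA_I and WT 374 ± 51.5 (SD, n = 4 and 8).

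The highest fold belonged to a gammaretroviral family. MMERGLN-int, the internal part of a gamma retrovirus related to murine leukaemia virus, stood at 2.28, 1.65, 4.36 and 3.29 CPM in LBRKO and 196, 162, 167 and 194 in QKO (log2 fold change 5.94 ± 0.28, adjusted p = 2.1e-19), and at 178 ± 31.8 in TKO and 3.60 ± 1.21 in WT. Its LTR followed (3.57). RLTR4_MM-int stood at 257, 268, 463 and 344 CPM against 1730, 1607, 1594 and 1708 (log2 fold change 2.32 ± 0.14, adjusted p = 2.0e-16), with 1371 ± 101 in TKO. Of 21 gammaretroviral families tested, 12 were called higher and none lower, with a median of 1.06. ERVB5_1-I_MM, an ERVK family, was raised in QKO and not in TKO, at 0.976, 1.22, 1.08 and 1.56 CPM in LBRKO, 7.68, 7.21, 7.93 and 8.94 in QKO and 1.29 ± 0.336 in TKO (log2 fold change 2.71 ± 0.19, adjusted p = 2.7e-14). IAP1-MM_I was similar, at 4.67, 4.17, 7.83 and 4.73 CPM against 30.4, 29.4, 27.1 and 30.1 (log2 fold change 2.45 ± 0.15, adjusted p = 2.0e-16), with 5.83 ± 0.476 in TKO. Of 25 IAP families, 7 were called, and the abundant IAPEz-int had a value of 0.54, the same as the median family. Charlie30a (2.56), MuRRS4-int (2.16) and MMERVK10D3_I (2.10) complete the 10 families with the highest folds. ETn and MusD had 1 of 5 called, MERVL and MT2 none of 2, SINE B1 and B2 none of 15, and RLTR45 and ERVB4 none of 11, and 0 members of the last 3 lists passed 2-fold at an unadjusted p under 0.05 or were called by DESeq2. Without LBRKO replicate 3, 21.9% of all families were called higher. Among them were 16 of 21 gammaretroviral, 13 of 25 IAP and 6 of 8 young LINE-1 families. The count was 4 of 11 for RLTR45 and ERVB4 and 2 of 15 for SINE B1 and B2, and 1 IAP family was lower. With reads of a single alignment summed over copies, all 10 of the highest families kept their direction, MMERGLN-int at 3.63, L1MdA_I at 1.71 and IAP1-MM_I at 1.07, the lowest of the 10.

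**Figure D4:**
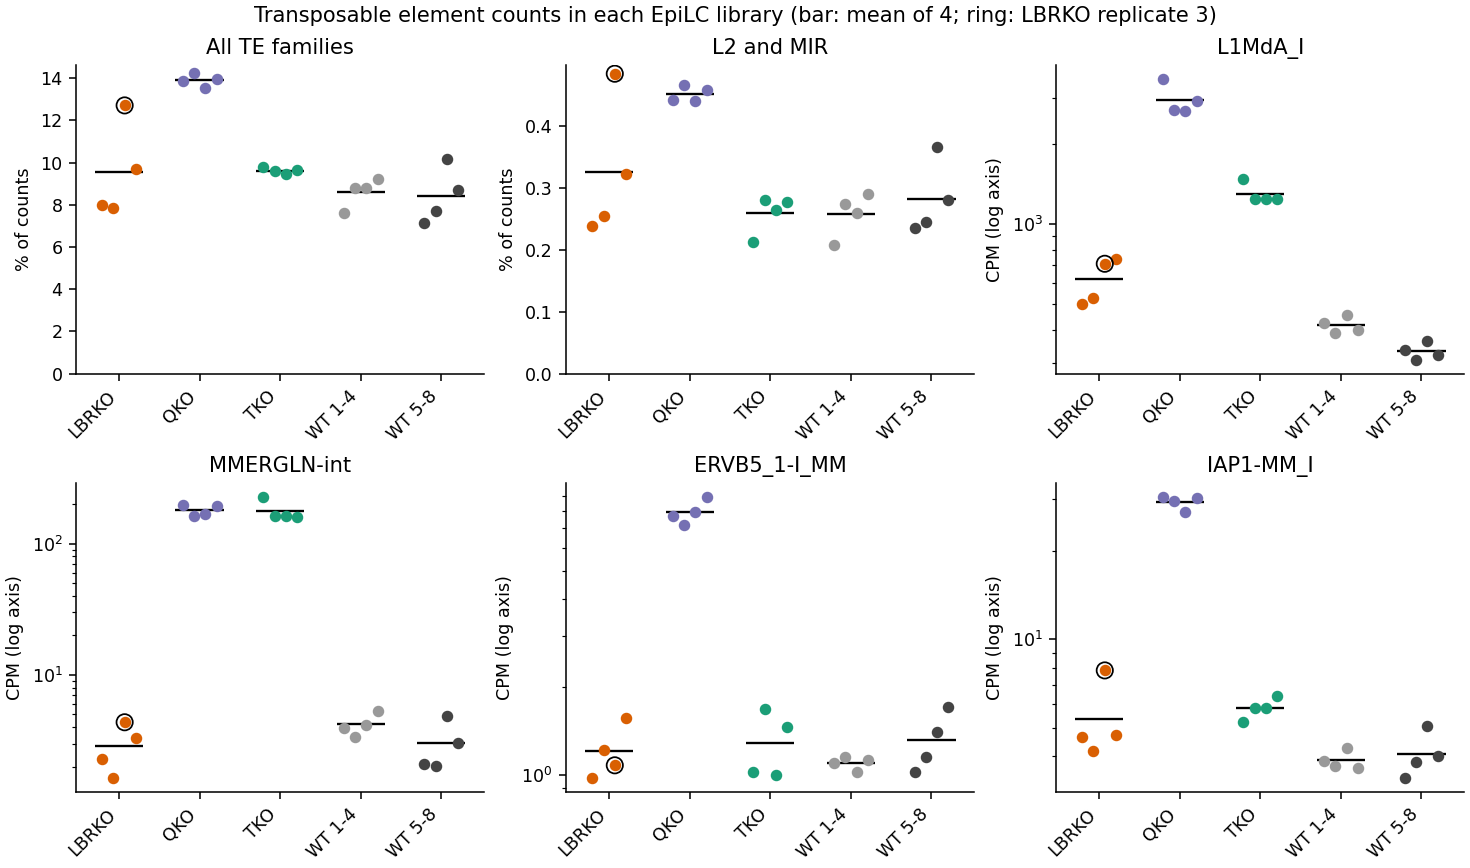
Percent of counts on all TE families and on L2 and MIR repeats, and CPM on a log axis of 4 families (y), in each EpiLC library by group (x). Bars are means of 4 and the ring marks LBRKO replicate 3, which lies with the QKO libraries for L2 and MIR, with the other LBRKO libraries for L1MdA_I and ERVB5_1-I_MM, near them for MMERGLN-int and above them for IAP1-MM_I.

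Chromosome 6 was set apart because its genes shifted together. The median log2 value of its 1167 tested genes was -0.46, against -0.09 to 0.08 on the other autosomes, and 203 of them (17.4%) were called lower and 39 (3.34%) higher. Measured within each library against WT and relative to the other autosomes, its 526 genes at 5 CPM or more lay at 0.36, 0.37, 0.38 and 0.38 in the LBRKO libraries and at -0.13, -0.14, -0.16 and -0.14 in the QKO libraries. TKO libraries lay at -0.14 to -0.1. The shift was thus made of a raised level in LBRKO and a smaller lowered one in QKO. The study's karyotypes found an extra chromosome 6 in part of the WT cells, and DNA dosage cannot be told apart from regulation for single genes there. Those WT cells and the TKO line also carried an extra chromosome 8. By the same measure, chromosome 8 lay at 0.08 to 0.12 in LBRKO and at 0.03 to 0.05 in QKO libraries. The same limit holds for its genes, *Mvd*, *Msmo1*, *Col4a1* and *Col4a2* among them. With the median of chromosome 6 subtracted, 82 of its genes were lower and 65 higher. Of 14 chromosome 6 genes of pluripotency and signalling, 5 were lower, among them the glucose transporter gene *Slc2a3* (-1.51, but -0.60 and not called with the WT difference added) and the receptor gene *Ret* (-1.65), and 2 higher, *Nod1* and *Dppa3*. The genes farthest from the shift were *Nod1*, a sensor of bacterial peptidoglycan, at 1.75, 1.81, 2.32 and 1.98 CPM in LBRKO and 30.2, 34.6, 40.6 and 38.5 in QKO (log2 fold change 4.19 ± 0.20, adjusted p = 4.7e-20; 27.3 in TKO), *Emp1* (1.73), *Arhgdib* (1.57) and *Ggct* (1.245) among the higher ones. Among the lower ones were *Plxnd1*, a semaphorin receptor, at 10.04, 12.0, 9.95 and 9.03 CPM against 1.76, 1.89, 1.87 and 2.33 (log2 fold change -2.38 ± 0.20, adjusted p = 4.2e-13), *Antxr1* (-2.44), the noncoding *Halr1* of the Hoxa locus (-2.56) and *Rny3* (-4.20), whose LBRKO libraries spread from 1.94 to 20.9 CPM. Away from chromosome 6, 2155 genes were higher and 1199 lower.

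Y-linked genes also differed. Of 8 Y-linked genes tested, 5 were higher, among them *Zfy1* (0.114, 0.102, 0.0209 and 0.0213 against 11.4, 8.83, 8.28 and 10.4 CPM, log2 fold change 7.21 ± 0.32, adjusted p = 1.5e-21) and *Kdm5d* (4.73), and *Usp9y* was lower (-2.42). *Zfy1* and *Zfy2* are near-identical copies and their values are uncertain. The study's karyotypes found cells without the Y chromosome in both the WT and the TKO line, from which LBRKO and QKO were made, and Y dosage cannot be told apart from regulation. The mitochondrial share of counts was 0.929% to 1.76% in QKO, highest in replicate 1, and 0.653% to 0.982% in LBRKO, so the ranges overlapped. Of 15 mitochondrially encoded genes, 2 were called higher, mt-Nd2 and mt-Nd6, against 9.38% of all genes. The call of mt-Nd2 was not clear of the WT difference, and mt-Nd6 overlapped between the groups.

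**Figure D5:**
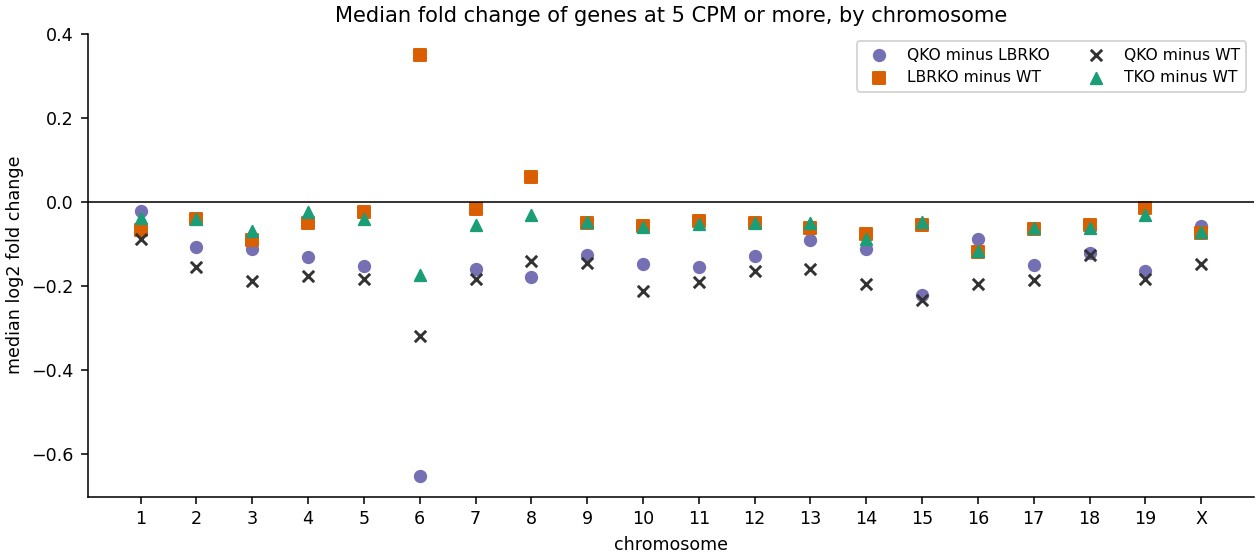
Median log2 fold change (y) of genes at 5 CPM or more on each chromosome (x) for QKO minus LBRKO and for each mutant minus WT. Chromosome 6 lies at -0.65 for QKO minus LBRKO, 0.35 for LBRKO minus WT and -0.32 for QKO minus WT, apart from the other autosomes.

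The difference between QKO and LBRKO was then set against that between TKO and WT, to ask whether lamin loss differed with and without LBR. The difference of differences was called positive for 1191 genes (5.09%) and negative for 692 (2.96%). With WT replicates 1 to 4 only, the counts were 1206 and 772, and with WT replicates 5 to 8 only, 1260 and 874. Of the 2194 genes higher in QKO than in LBRKO, 906 also passed this test in the same direction, and of the 1402 lower genes 535. These genes were chosen by their QKO minus LBRKO value, which is part of the difference tested, so nothing is read from these counts. TKO minus WT called 336 genes higher (1.44%) and 346 lower (1.48%). Of those, 182 were also higher in QKO than in LBRKO (8.29% of the one list and 54.2% of the other) and 159 also lower (11.3% and 45.95%). *Wnt5a* (4.78 ± 0.57), *Nrcam* (4.46 ± 0.26), *Gata6* (1.84 ± 0.46), *Vim* (1.62 ± 0.15), *Mvd* (-1.59 ± 0.17), *Alg13* (-2.57 ± 0.11) and *Egln3* (-2.28 ± 0.12) passed it. TKO EpiLCs held 0.562 ± 0.128 CPM of *Gata6* and 97.4 ± 1.24 of *Vim*, against 0.371 ± 0.0919 and 87.3 ± 8.97 in WT, and *Wnt5a* was lower in TKO than in WT, at 0.212 ± 0.124 against 0.496 ± 0.163 CPM (SD, n = 4 and 8). *Apoa2* (1.76 ± 0.68), *Nod1* (-0.08 ± 0.26), *Cyct* (0.44 ± 0.31), *Igsf23* (-0.11 ± 0.23) and *Crocc2* (-0.31 ± 0.26) did not. In the cholesterol list 7 of 20 genes passed it, all negative, with a median of -0.77. This test pooled all WT replicates, while TKO libraries held 22.6 to 33.2 M gene counts, near the depth of WT replicates 1 to 4. Part of the WT difference, a median of -0.48 for this list, can thus remain in that value and in that of *Mvd*. Its part was not tested. In the two-cell-like list 9 of 12 passed the same test, all positive, with 9 called lower in TKO than in WT. TKO minus WT called 8 TE families higher (0.701%), 7 of them also higher in QKO than in LBRKO. In the difference of differences, 45 families were positive (3.94%) and 2 negative (0.175%), ERVB5_1-I_MM (2.62 ± 0.26) and IAP1-MM_I (1.89 ± 0.19) among the first, whereas MMERGLN-int (0.31 ± 0.33) and L1MdA_I (0.45 ± 0.23) did not pass.

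The same difference was last compared between EpiLCs and naive mES cells, where 1308 genes (5.59%) were positive and 1015 (4.34%) negative. Naive mES cells were kept with LIF, CHIR99021 and PD0325901 in place of FGF and Activin A. Stage and medium therefore cannot be told apart in this comparison. *Wnt5a* stood at 0.0926 ± 0.0707 CPM in LBRKO and 0.0181 ± 0.0210 in QKO mES cells (SD, n = 4 each), so that its excess in QKO was found in EpiLCs and not before (difference 5.77 ± 0.89, with the fitted size dependent on levels near 0). *Gata6* (3.05 ± 0.49), *Nrcam* (4.20 ± 0.44), *Wnt8a* (5.04 ± 0.72) and *Eomes* (3.90 ± 0.17) also passed in that direction. *Eomes* was higher in LBRKO than in QKO mES cells, 11.4 ± 0.895 against 2.45 ± 0.323 CPM, and lower in LBRKO EpiLCs. *Mvd* was lower in QKO at both stages, with a larger fitted gap in EpiLCs (88.3 ± 2.84 against 54.1 ± 1.51 CPM in mES cells, difference -1.07 ± 0.19). The WT sets of EpiLCs differed by -0.70 for *Mvd*, and the part of this WT difference in the stage value was not tested. *Otx2* and *Lefty1* went the other way (-2.44 ± 0.62 and -5.31 ± 0.87), since in mES cells *Otx2* stood at 0.561 ± 0.106 CPM in LBRKO and 8.20 ± 1.63 in QKO and *Lefty1* at 0.0664 ± 0.0301 and 6.11 ± 0.537. *Apoa2* (0.61 ± 0.85) and *Klhl13* (-0.17 ± 0.14) did not pass, and stood at 6.41 ± 0.765 and 323 ± 1.71 CPM in QKO mES cells. No TE family was more raised in EpiLCs than in mES cells, and 16 of 1142 (1.4%) were less so, L1MdA_I (-1.33 ± 0.25) and ETnERV2-int (-1.05 ± 0.23) among them.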

How the data were processed

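Total RNA of 40 libraries (8 each of WT EpiLCs and WT naive mES cells, and 4 each of the 6 mutant groups) was sequenced as 150-base paired ends after ribosomal RNA depletion. The authors deposited raw gene counts, made per the labels with cutadapt 2.5, STAR 2.7.10a and featureCounts 1.6.4 on GRCm39, raw TE counts that include multimapped reads, and counts of reads with a single alignment per TE copy. No strand setting of the counting was found: it is not given in the sources used here. Therefore, overlapping and antisense genes cannot be told apart. Per the study's methods, gene counts kept only reads with a single alignment, so paralogs and pseudogenes of like sequence can lose reads.

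Counts were tested as deposited with edgeR 4.0.16 (R 4.3.3, TMM, filterByExpr, quasi-likelihood test) in a model of all 40 libraries with a mean per group. Genes and TE families were called at a Benjamini-Hochberg adjusted p under 0.05 and a fold over 2, adjusted over all 23399 genes or all 1142 families. Families were fitted together with the genes. TE shares were tested by exact permutation. Errors after ± are SD for levels and standard errors of the fit for log2 values, and all log2 values are fitted differences. The scripts were tested on simulated data. Depth of 22.6 to 48.9 M gene counts limits genes under about 1 CPM most. DESeq2 1.42.0, other scalings and filters, leaving out libraries, thinning, a replicate block, and subsets of LBRKO libraries were alternatives.

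The members and gene lists were chosen with earlier results of these data known. Named genes were the targeted and marker genes, up to 4 called members per list and direction with the largest changes, the 12 genes with the highest and the 12 with the lowest fold off chromosomes 6 and Y (mean of at least 5 CPM in the higher group, clear of the WT difference, no overlap, no clone name), 4 each way on chromosome 6 and the 10 highest TE families at 1 CPM by the same rule. Members that define a list are given as values whether called or not. A few genes of the sterol pathways, and counts that rest on them, are not reported here.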

Additional observations from a re-analysis of the deposited data

Results flagged for a closer look

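The difference between QKO and LBRKO EpiLCs was larger or smaller than that between TKO and WT EpiLCs, by edgeR's quasi-likelihood test of the difference with an adjusted p under 0.05 and a gap over 2-fold, for 22 of the 37 targeted, marker and leading genes, against 5.09% (positive) and 2.96% (negative) of all genes. Leading genes were chosen by their QKO minus LBRKO value, which is part of this gap, so nothing is read from the count. The gap on the log2 scale was positive for *Wnt5a* (4.78), *Ebf3* (4.50), *Nrcam* (4.46), *Rcsd1* (3.82), *Slfnlnc* (3.58), *Efhc2* (2.64), *Btnl7-ps* (2.61), *Klhl13* (2.46), *Cyp2b23* (2.27), *Gata6* (1.84), *Smc1b* (1.80), *Arhgdib* (1.38) and *Lmnb1* (1.06). It was negative for *Rny3* (-4.38), *Halr1* (-3.58), *Rhox6* (-2.77), *Alg13* (-2.57), *Egln3* (-2.28), *Antxr1* (-2.10), *Plxnd1* (-2.02), *Krt42* (-2.0) and *Mvd* (-1.59). *Lmnb1* is deleted in TKO and QKO alike, and its gap rests on residual levels near 2 CPM.

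The difference between QKO and LBRKO also changed between EpiLCs and naive mES cells for 15 of these 37 genes by the same test, against 5.59% (positive) and 4.34% (negative) of all genes. The change was positive for *Wnt5a* (5.77), *Nrcam* (4.20), *Gata6* (3.05), *Emp1* (3.02), *Rcsd1* (2.65), *Btnl7-ps* (1.47), *Arhgdib* (1.31), *Slfnlnc* (1.17) and *Lmna* (1.01). It was negative for *Ankrd35* (-3.37), *Lmnb1* (-2.94), *Rny3* (-2.77), *Cyp2b23* (-1.47), *Mvd* (-1.07) and *Plxnd1* (-1.06).

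Single libraries lay apart from the other 3 of their group in 18 of 290 groups of values examined, where chance puts about 1 in 20 groups. LBRKO replicate 3 was lowest for *Lmna* (13.5 CPM), *Bmp4* (4.85 CPM) and *Thrsp* (0.125 CPM) and highest for IAP1-MM_I (7.83 CPM) and IAPLTR2a2_Mm (9.47 CPM). QKO replicate 1, which also held the largest mitochondrial share, was highest for mt-Nd6 (169 CPM), L1MdGf_I (421 CPM), Charlie30a (17.0 CPM), *Dppa3* (4.43 CPM) and *Hand1* (0.756 CPM) and lowest for *Cyp2b23* (10.9 CPM) and *Rcsd1* (7.38 CPM). The others were *Emp1* in QKO replicate 4 (15.2 CPM), *Rhox6* in QKO replicate 2 (1.66 CPM), *Ret* in LBRKO replicate 2 (7.51 CPM), mt-Nd6 in LBRKO replicate 4 (56.7 CPM), *Zfp352* in LBRKO replicate 1 (0.0227 CPM) and *Zscan4f* in LBRKO replicate 2, at 0 CPM.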

How the results depend on the processing

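Counts of genes called between QKO and LBRKO stayed within 1.5 times of the reported 2194 higher and 1402 lower under every alternative run, from 1586 to 2863 and from 1076 to 1624. Leaving out single libraries gave 1987 to 2741 and 1290 to 1453. The TE count depended on LBRKO libraries. Instead of 86 families higher, 548 were called with only LBRKO replicates 1 and 2 and 39 with only replicates 3 and 4, and leaving out single libraries gave 61 to 251, the highest without LBRKO replicate 3. The single lower family became 0 with only the 8 libraries compared, less the WT difference and with replicates 3 and 4 only, 2 with replicates 1 and 2 only and 3 with reads of a single alignment, and 0 to 2 without single libraries (0 without LBRKO replicate 2 or 4 or QKO replicate 4, 2 without QKO replicate 2). The TE share difference was 3.77 to 5.39 points without single libraries, where the exact p cannot go below 0.0571. Between WT replicates 1 to 4 and 5 to 8, the 166 higher genes became 70 without WT replicate 5 and 108 without WT replicate 1, in a range of 70 to 240 over single libraries left out, and 243 with no filter on low counts. The 71 lower genes became 46 without WT replicate 8, in a range of 46 to 78 over single libraries left out, and 42 with no filter. The cause was not tested.

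A replicate block gave 2274 higher and 1095 lower genes, 117 higher TE families and 0 lower. Same-numbered libraries share only a number: their deviations from the group means correlated at 0.111, -0.0451, 0.0427 and -0.173 over 11114 genes, and 0 of 4 QKO libraries correlated best with the LBRKO library of their number. Of 136 named results, 24 lost their call less the WT difference, 17 with it added, 15 with LBRKO replicates 3 and 4 only and 2 with DESeq2. No called result reversed, and *Lbr*, which was not called, ranged from -0.51 to 0.38 over the alternatives. By DESeq2, 8 cholesterol synthesis, 3 fatty acid synthesis and 1 imprinted gene were lower, against 10, 5 and 2, and 5 p53 targets and 13 gammaretroviral families higher, against 4 and 12.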
